A study of Homo sapiens with 15 samples.

Results

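The levels of 10 genes of developing red cells and of neutrophil granulocytes were measured in 15 marrow RNA libraries from mice carrying a human myeloma. They were the listed marker genes HBB, HBD, ALAS2, SPTB and CA2 for the erythroid series and MPO, LTF, S100A9, MMP8 and MMP9 for the granulocyte series, 10 of the 57773 genes in each count table. All 10 had counts in the tables, and all 10 were among the 13085 genes with enough counts to be tested. The host was the SCID-beige mouse, an immunodeficient strain that accepts human cells, injected in every group with cells of MM.1S, an established human multiple myeloma line marked with GFP and luciferase. Femoral marrow was flushed out once a mouse was paralysed, so host marrow cells and tumour cells were collected together, and no sort is described.

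There were 5 groups of 3 libraries. The first group received bortezomib, a proteasome inhibitor, at 0.25 mg/kg by weekly intraperitoneal injection. The second received elesclomol, a copper ionophore, at 25 mg/kg under the skin. The third, called the combination, received both from inclusion. The fourth, called the delayed combination, received bortezomib with elesclomol added 14 days after inclusion. The control group is labelled PBS and had a weekly saline injection. The protocol gives 5 treated mice in each group, and the labels do not say whether the 3 libraries came from 3 mice. The p-values therefore measure the spread between these libraries, and 1 tumour line stands behind all of them.

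Red cell precursors fill themselves with haemoglobin, a tetramer of alpha-type and beta-type globin chains that each hold a haem group, and they build a spectrin skeleton under the membrane. Neutrophil precursors make their granule proteins in sequence, with primary granule proteins such as myeloperoxidase made early, secondary ones such as lactoferrin later and gelatinase last. Both lineages are normal residents of femoral marrow, and plasma cells such as myeloma cells are not known for making haemoglobin, myeloperoxidase or lactoferrin. The reads were assigned to human genes, and how reads of mouse cells were handled is not given in the sources used here. Fewer cells of a type and less RNA per cell cannot be told apart in these bulk libraries.

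Library totals ran from 5458022 to 8449749 counts with bortezomib, 6602596 to 7977375 with elesclomol, 6448673 to 9227140 with the combination, 11060930 to 13161087 with the delayed combination, and 4500326 to 6287708 with PBS. Library elesclomol 1 stood apart from the other 14 in the 10 genes, and the elesclomol comparisons, the spread and the correlations are given with and without it. Leaving it out also narrowed the standard errors of the comparisons among the other groups (for HBB with bortezomib against PBS, 0.37 without it and 0.78 with it). Libraries bortezomib 1, combination 1 and delayed combination 2 stood apart in another way, with high counts of GC-rich genes (correlation of a gene's deviation with its GC content 0.51, 0.49 and 0.32, against -0.29 to -0.35 in PBS). The plasma cell markers JCHAIN, XBP1, SDC1 and IRF4 were abundant in every library, and JCHAIN alone had 52456 counts in elesclomol 1 and 36528 to 120475 in the 14 others.

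HBB (ENSG00000244734) encodes the adult beta-globin chain, and HBD (ENSG00000223609) the delta-globin chain of the minor adult haemoglobin A2. They lie on chromosome 11 in the beta-globin cluster and are close copies, so the division of reads between them is uncertain. Over the 444 coding bases, 92.79% of positions were identical, and 10 of the 395 windows of 50 bases were the same in both. The first 120 coding bases of exon 2 are shown because they hold both a shared stretch and 6 of the differing positions, which are in capitals. The HBB stretch is at chr11:5226680-5226799 and the HBD stretch at chr11:5234094-5234213, both on the minus strand of GRCh38, annotated by GENCODE 29 and written 5′ to 3′.
HBB: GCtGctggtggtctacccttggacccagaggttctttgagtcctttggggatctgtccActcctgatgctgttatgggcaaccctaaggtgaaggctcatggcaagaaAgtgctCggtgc
HBD: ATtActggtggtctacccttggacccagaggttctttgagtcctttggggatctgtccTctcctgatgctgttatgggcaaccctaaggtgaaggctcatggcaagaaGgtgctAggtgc

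HBB was the more variable of the pair. It stood at 28.3, 33.7 and 32.2 CPM in the bortezomib libraries, 285.2, 31.7 and 27.1 with elesclomol, 11.1, 14.2 and 30.7 with the combination, 15.9, 10.6 and 24.0 with the delayed combination, and 29.7, 19.1 and 31.2 with PBS. CPM, a gene's counts relative to its library's total, here use totals scaled by TMM, a normalisation that assumes most genes do not change. Elesclomol 1 was 8.46 times the next highest library, and the other 14 lay between 10.6 and 33.7 CPM.

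HBD gave 32.8, 32.5 and 38.6 CPM with bortezomib, 239.5, 39.5 and 34.3 with elesclomol, 18.5, 17.4 and 32.4 with the combination, 20.2, 17.6 and 33.9 with the delayed combination, and 29.7, 21.1 and 30.9 with PBS. Elesclomol 1 was again the highest, at 6.07 times the next. Delta-globin is a minor chain in human red cells, yet HBD had at least as many counts as HBB in 12 of the 15 libraries. Its share of the 2 genes' counts was 45.6% in elesclomol 1 (95% Wilson interval 44.0 to 47.3%, counting error only), 62.5% in combination 1 (56.5 to 68.0%) and 62.4% in delayed combination 2 (56.9 to 67.6%). The median share over the 15 libraries was 54.5%.

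**Figure D1:**
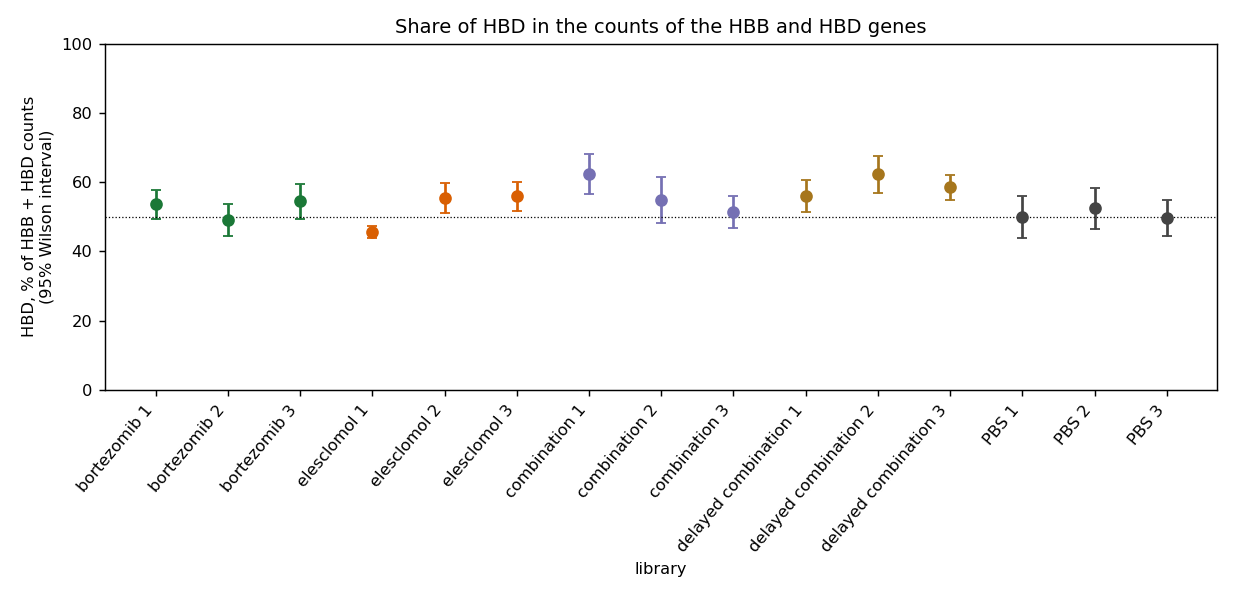
Percentage of HBD in the summed counts of HBB and HBD in each library, with 95% Wilson intervals, in order of treatment with PBS last. Points run from 45.6% in elesclomol 1 to 62.5% in combination 1, and 12 of 15 lie at or above 50%.

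The other globin genes did not share this level. The embryonic epsilon-globin gene HBE1 had 453 counts in elesclomol 1 and 2 to 51 in the others. Its human coding sequence is less like that of HBB than HBD's is (79.05% of positions identical, 0 identical windows of 50 bases). How reads of mouse globins would be divided among these genes was not tested. The alpha-globin gene HBA1 had 0 counts in all libraries and HBA2 had 56 over all 15, 38 of them in elesclomol 1. HBA1 and HBA2 are identical over their 429 coding bases, so reads from either could have been dropped as ambiguous. The fetal genes HBG1 and HBG2, 99.55% identical, had 0 and 3 counts.

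ALAS2 (ENSG00000158578, chromosome X), the erythroid form of the first enzyme of haem synthesis, followed the globins. Its level was 1.03, 2.58 and 2.64 CPM with bortezomib, 19.3, 1.95 and 1.46 with elesclomol, 0, 0 and 1.97 with the combination, 0.334, 0.273 and 0.485 with the delayed combination, and 0.675, 0.911 and 0.345 with PBS. Combination 1 and 2 had 0 counts, which allows up to 0.330 and 0.449 CPM from 3 counts. Combination 1, combination 2, delayed combination 1 and delayed combination 2 were the 4 lowest libraries for HBB, for HBD, for ALAS2 and for HBE1, a pattern noticed after the values were seen. HBE1 had 2.60, 0.948, 1.85 and 1.93 counts per 100 counts of HBB and HBD in these 4, and 6.42 to 13.1 in the other 11.

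SPTB (ENSG00000070182, chromosome 14) encodes beta-spectrin of the red cell skeleton. It stood at 2.18, 2.58 and 1.51 CPM with bortezomib, 20.4, 1.54 and 1.58 with elesclomol, 1.32, 1.20 and 0.703 with the combination, 1.33, 1.36 and 0.727 with the delayed combination, and 2.70, 1.37 and 1.73 with PBS. CA2 (ENSG00000104267, chromosome 8), carbonic anhydrase II, is abundant in red cells and also in bone-resorbing osteoclasts. It stood at 1.49, 0.607 and 1.13 CPM with bortezomib, 12.6, 1.54 and 2.06 with elesclomol, 2.20, 0.749 and 1.55 with the combination, 2.42, 1.27 and 1.45 with the delayed combination, and 1.58, 1.52 and 1.73 with PBS. Elesclomol 1 was 7.54 times the next library for SPTB and 5.21 times for CA2, while the highest of the other 14 was 3.84 times the lowest for SPTB and 3.98 times for CA2.

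Outside elesclomol 1, the SD over the other 14 libraries was 0.55 to 0.90 of the mean in the granulocyte genes, 0.88 in ALAS2 and 0.28 to 0.38 in the other erythroid genes. MPO (ENSG00000005381, chromosome 17), myeloperoxidase of the primary granules, gave 0.803, 2.43 and 7.53 CPM with bortezomib, 45.7, 1.12 and 3.64 with elesclomol, 0.220, 8.24 and 0.844 with the combination, 1.25, 1.27 and 1.21 with the delayed combination, and 4.95, 6.53 and 2.42 with PBS. The highest of the other 14 libraries was 37.4 times the lowest, against 3.17 times for HBB. Combination 2 was highest and combination 1 lowest of these 14, so the range of 1 treatment covered that of all the others.

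LTF (ENSG00000012223, chromosome 3) encodes lactoferrin, the iron-binding protein of secondary granules. Its level was 0.803, 7.14 and 8.28 CPM with bortezomib, 35.8, 4.05 and 9.46 with elesclomol, 0.551, 11.99 and 2.39 with the combination, 1.33, 2.18 and 1.94 with the delayed combination, and 4.50, 8.35 and 4.66 with PBS. S100A9 (ENSG00000163220, chromosome 1), a subunit of calprotectin, is a calcium-binding protein of the neutrophil cytoplasm. It gave 1.03, 4.40 and 6.02 CPM with bortezomib, 27.8, 1.54 and 5.95 with elesclomol, 0.440, 7.49 and 3.52 with the combination, 1.08, 2.09 and 1.54 with the delayed combination, and 3.15, 7.14 and 3.11 with PBS. In both genes elesclomol 1 was highest, combination 2 next and combination 1 lowest, the same as in MPO.

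MMP8 (ENSG00000118113, chromosome 11), neutrophil collagenase, was the rarest of the 10 with 159 counts over all libraries. It gave 0.229, 0.759 and 1.69 CPM with bortezomib, 10.0, 1.67 and 3.16 with elesclomol, 0, 0.599 and 0.844 with the combination, 0.834, 0.0908 and 0.0808 with the delayed combination, and 0.900, 1.06 and 1.04 with PBS. Of the 4 libraries in which MMP8 reached the level set for testing, 1.41 CPM, 3 were the elesclomol libraries. Without that group it would not have passed the filter. MMP9 (ENSG00000100985, chromosome 20), gelatinase B, is stored in late neutrophil granules and is also made by osteoclasts and macrophages. Its level was 3.33, 1.82 and 3.76 CPM with bortezomib, 14.1, 2.09 and 5.22 with elesclomol, 4.40, 1.50 and 4.92 with the combination, 1.17, 8.36 and 3.88 with the delayed combination, and 2.70, 2.43 and 2.59 with PBS. MMP9 had the smallest excess in elesclomol 1, 1.69 times delayed combination 2.

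**Figure D2:**
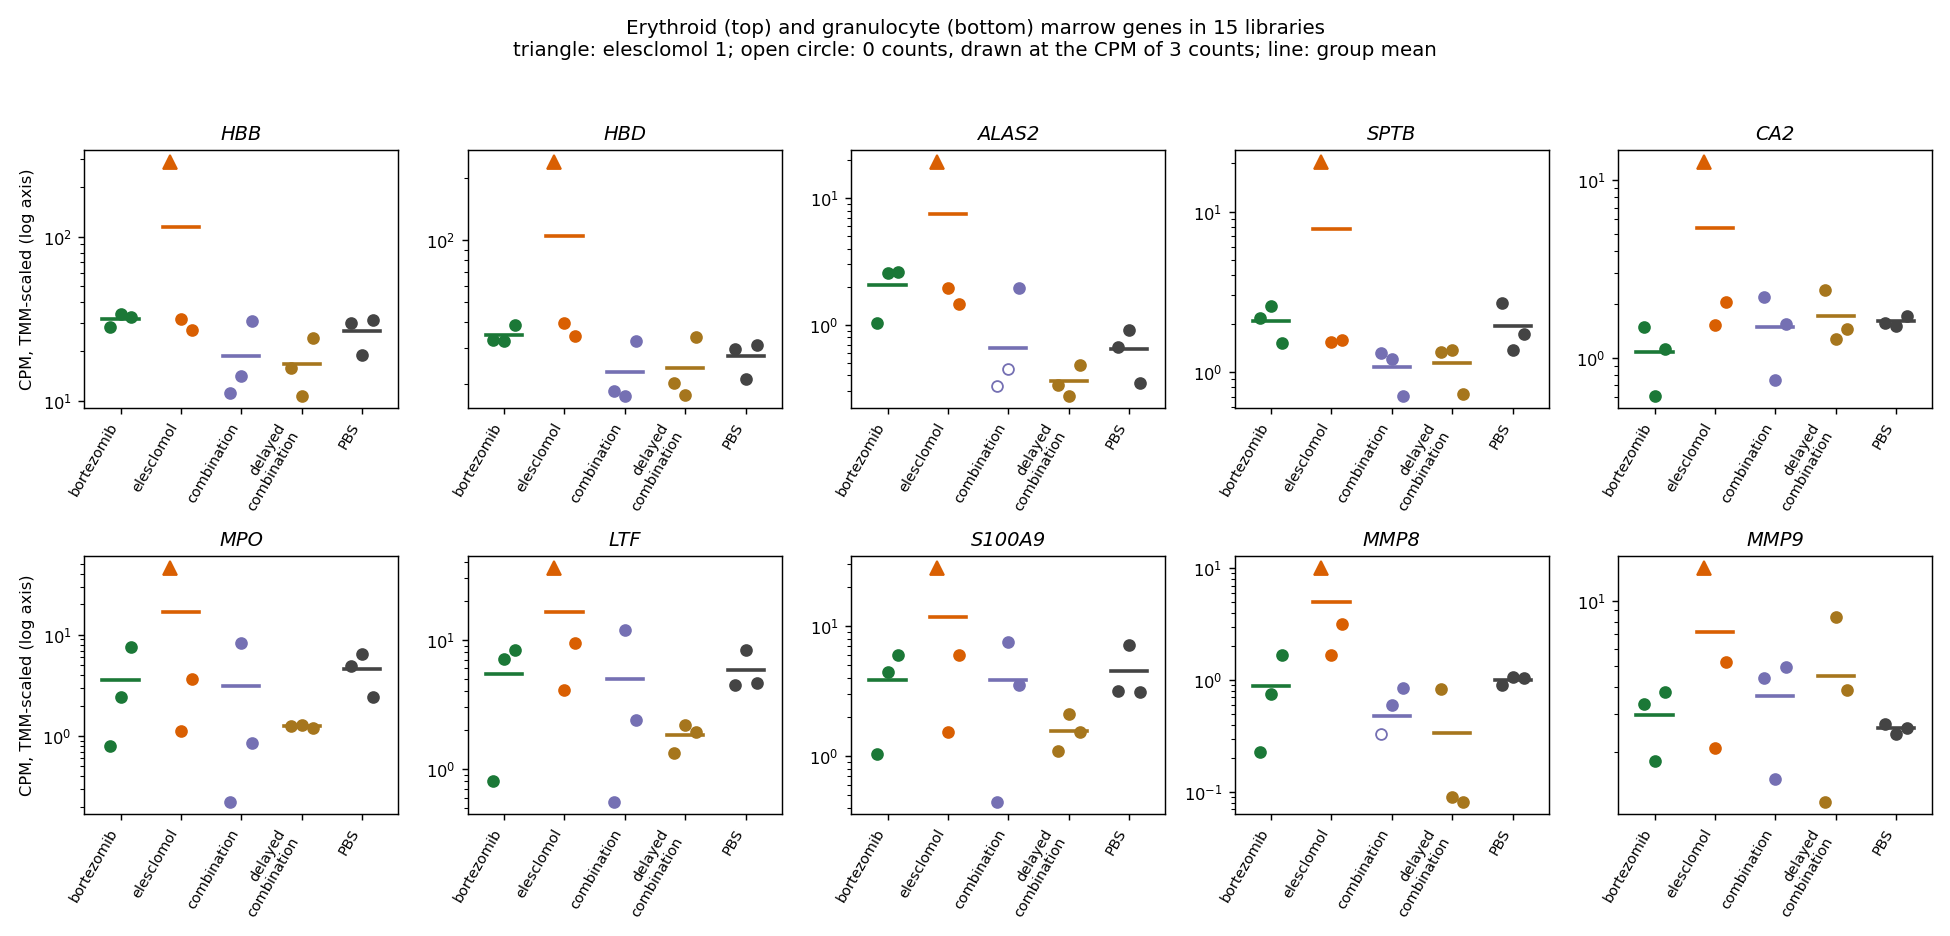
Level of each gene in each library, in TMM-scaled CPM on a log axis, by group with PBS at the right, erythroid genes in the upper row and granulocyte genes in the lower; horizontal lines are group means. The triangle is elesclomol 1, the highest library in all 10 panels, and open circles are libraries with 0 counts drawn at the CPM of 3 counts.

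Per kilobase of exon, the median library held 25.5 CPM of HBD and 21.7 of HBB, far more than any other of the 10. S100A9 followed at 5.46 CPM per kilobase, MMP9 at 1.42, LTF at 1.06, CA2 at 0.723, MPO at 0.685, ALAS2 at 0.427, MMP8 at 0.246 and SPTB at 0.102. The order of these medians rests on exon lengths from GENCODE 29 and was not tested.

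Variation between replicates was above the median gene in all 10 genes, and was smaller without elesclomol 1, most of all in HBB, HBD, SPTB and CA2. The biological coefficient of variation, the relative SD between replicates estimated by edgeR, was 0.60 for HBB, 0.50 for HBD, 0.96 for ALAS2, 0.65 for SPTB, 0.53 for CA2, 1.01 for MPO, 0.80 for LTF, 0.79 for S100A9, 0.71 for MMP8 and 0.58 for MMP9. The median of all tested genes was 0.139. From 0.0611% of tested genes, for MPO, to 1.75%, for HBD, were more variable than these. Without elesclomol 1 it was 0.31 for HBB, 0.23 for HBD, 0.17 for SPTB and 0.23 for CA2, and 34.5% of tested genes were more variable than SPTB. It was 0.63 for ALAS2, 0.84 for MPO, 0.76 for LTF, 0.68 for S100A9, 0.56 for MMP8 and 0.49 for MMP9, beside a median of 0.14 over all tested genes.

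Elesclomol 1 was the only library with a broad set of genes standing above all others. Of its 11059 genes with at least 20 counts, 59 (0.534%) were at least 3 times the level of every other library, among them 8 of the 10 genes, all but LTF and MMP9. Each of the other 14 libraries had 0 or 1 such gene. Since the 10 genes were followed with earlier results known, this count is a description and carries no test.

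**Figure D3:**
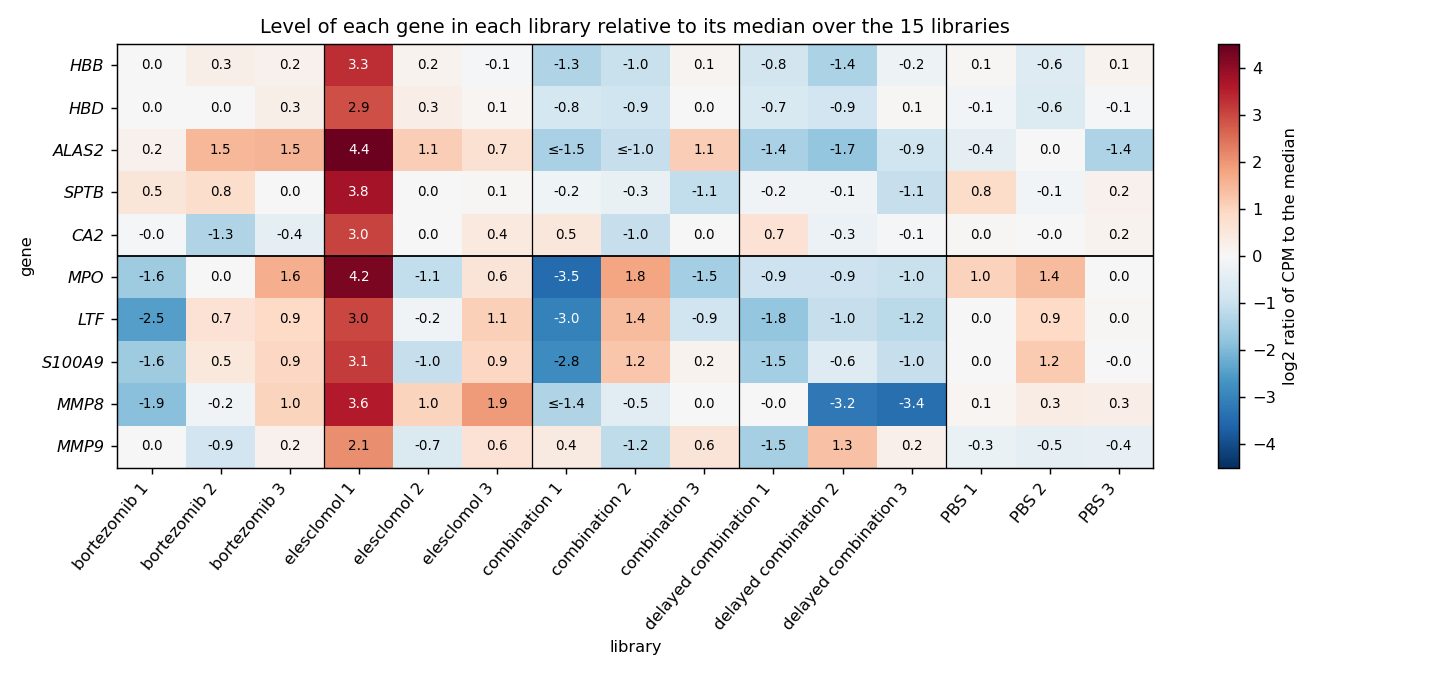
Log2 ratio of each gene's CPM to its median over the 15 libraries, with genes down the page, libraries across and PBS at the right; a value marked ≤ is a library with 0 counts, taken at 3 counts. Elesclomol 1 is high in all 10 genes, while the low values of MPO, LTF and S100A9 in bortezomib 1 and combination 1 are not shared by SPTB or CA2.

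Further red cell genes stood out in the same library. SLC4A1, the band 3 anion exchanger of the red cell membrane, had 179 counts in elesclomol 1 and 3 in all other libraries together. ANK1, the ankyrin that ties band 3 to spectrin, had 60 against 4 in the others together. The erythroid transcription factor GATA1 (11 counts), the alpha-globin chaperone AHSP (9) and the repressor GFI1B (6) had counts in elesclomol 1 alone. These 5 genes, HBE1 and the other genes named here at or near 0 were picked for naming after their values were seen.

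Of the 4 most abundant other erythroid genes, 3 stayed within their range in the other libraries. Of 43 further erythroid genes, 19 could be tested, and 8 of the 25 with at least 20 counts in elesclomol 1 were at least 3 times every other library. Their summed level was 972.8 CPM in elesclomol 1 and 797.2 to 897.9 in the other 14. That sum was carried by EPB41, TFRC, XK and GYPC, the 4 most abundant, which encode protein 4.1, the transferrin receptor, a membrane transport protein and glycophorin C. EPB41 gave 190.4 CPM in elesclomol 1 and 156.5 to 187.5 in the others, and TFRC 127.4 against 118.1 to 179.6. XK gave 101.6 against 97.3 to 140.1 CPM, and GYPC 66.2 against 62.6 to 107.9. The erythroid factor KLF1 had 71 counts over all libraries, 5 of them in elesclomol 1.

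Further granulocyte genes were mostly near 0. Of 33 listed, 32 were found and 12 tested. Of the 11 with at least 20 counts in elesclomol 1, 1 was at least 3 times every other library. The summed level was 437.0 CPM in elesclomol 1 and 333.1 to 506.7 in the other 14, carried by CTSC, CYBA, ALOX5AP and CYBB. These encode a protease that activates granule enzymes, both membrane subunits of the NADPH oxidase and a protein of leukotriene synthesis, and are not limited to neutrophils. CYBB was highest in elesclomol 1, at 43.4 CPM against 17.8 to 34.1 in the others. CTSC gave 124.5 against 119.0 to 163.0 CPM, CYBA 92.5 against 91.5 to 135.4, and ALOX5AP 43.1 against 33.1 to 71.5. The primary granule proteases ELANE, CTSG and PRTN3 had 30, 11 and 11 counts over all libraries, 16, 5 and 3 of them in elesclomol 1. S100A8, the calprotectin partner of S100A9, had 1 count in all and the secondary granule gene CAMP had 1, against 526 for S100A9 and 709 for LTF.

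The 9 listed erythroid and granulocyte genes that mice lack were at or near 0 everywhere. S100A12, CEACAM6, CEACAM8, GYPB and GYPE had 0 counts over the 15 libraries. AZU1 had 1 count, FCGR3B 2, CXCL8 5 and FCAR 8. Elesclomol 1 held 1 of these 16 counts, a single count of FCAR, while it held 1878 counts of HBB and 301 of MPO. Their summed level was 0.152 CPM in elesclomol 1 and 0 to 0.376 CPM in the other 14. Whether the counts of the 10 genes came from mouse or human RNA was not tested.

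Markers of other marrow cells moved with elesclomol 1 in part. The 10 megakaryocyte and platelet genes summed to 16.4 CPM there and 0.304 to 2.07 in the other libraries. ITGA2B, the platelet integrin alpha IIb, had 42 counts and VWF 37, with at most 5 of either in any other library, but PF4 had 0 throughout. The 10 genes of eosinophils, mast cells and basophils summed to 12.6 CPM against 0.450 to 3.03 in the others. Eosinophil peroxidase, EPX, had 40 counts and the histamine-forming enzyme HDC 27, with at most 10 elsewhere. Endothelial genes summed to 11.5 CPM against 0.698 to 10.8 in the others, and T and NK cell genes to 1.82 against 1.58 to 5.50.

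The summed level of the more abundant marrow lists stayed within the range of the other libraries. Monocyte and macrophage genes summed to 60.7 CPM in elesclomol 1 and 44.3 to 65.9 in the others. Osteoclast genes summed to 159.0 CPM against 142.0 to 186.1, and stromal and bone genes to 202.9 against 104.7 to 241.4. Single genes of these lists did stand out, such as the stromal chemokine CXCL12 with 51 counts against at most 19 elsewhere (4.49 times the next library). The adhesion molecule VCAM1 was at 11.8 CPM against at most 4.81 elsewhere, and both genes were named after their values were seen. The part of any of these cells in the levels of the 10 genes was not tested. In no comparison below did a gene of the other erythroid or other granulocyte lists pass the threshold.

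Elesclomol against PBS asks what the copper ionophore alone did, and of the comparisons against PBS it gave the highest median. All 10 genes lay above 0, with a median log2 change of 1.88 beside 0.00397 for all tested genes. ALAS2 was at 3.48 ± 1.22 (SE; adjusted p = 0.503), MMP8 at 2.26 ± 0.84 (0.527), HBB at 2.10 ± 0.78 (0.537) and HBD at 1.94 ± 0.64 (0.481), by the quasi-likelihood test of edgeR, Benjamini-Hochberg adjusted over all tested genes. By this test 0 of the 10 passed 0.05, beside 0.0688% of all tested genes. At an unadjusted p under 0.05 there were 6 of 10, beside 8.07% of tested genes, and DESeq2 passed 0 after adjustment. HBD, ALAS2 and MMP8 had every elesclomol library above every PBS library, 3 of 10 beside 9.55% of tested genes in that direction and 19.8% in either. MMP8 was among the 6 under 0.05 unadjusted as well. It entered the test only because it was high in the elesclomol group, so its place in both counts, its p-value and its log2 change are a description.

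The shift rested on elesclomol 1. HBB averaged 114.6 ± 147.7 CPM in elesclomol libraries and 26.7 ± 6.58 in PBS libraries (SD, n = 3 each), but elesclomol 2 and 3 averaged 29.4 ± 3.26. Without elesclomol 1, HBB was at 0.14 ± 0.41, HBD at 0.44 ± 0.30, ALAS2 at 1.36 ± 0.98, CA2 at 0.17 ± 0.48, LTF at 0.20 ± 0.99 and MMP9 at 0.53 ± 0.74. SPTB, MPO and S100A9 changed sign, to -0.27 ± 0.43, -0.94 ± 1.15 and -0.26 ± 0.91. MMP8 was at 1.26 ± 0.80, and elesclomol 2 and 3 still had 1.67 and 3.16 CPM against at most 1.06 in PBS. The median of the 10 was 0.18, and 0 passed adjusted (0.0306% of tested genes) or unadjusted.

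**Figure D4:**
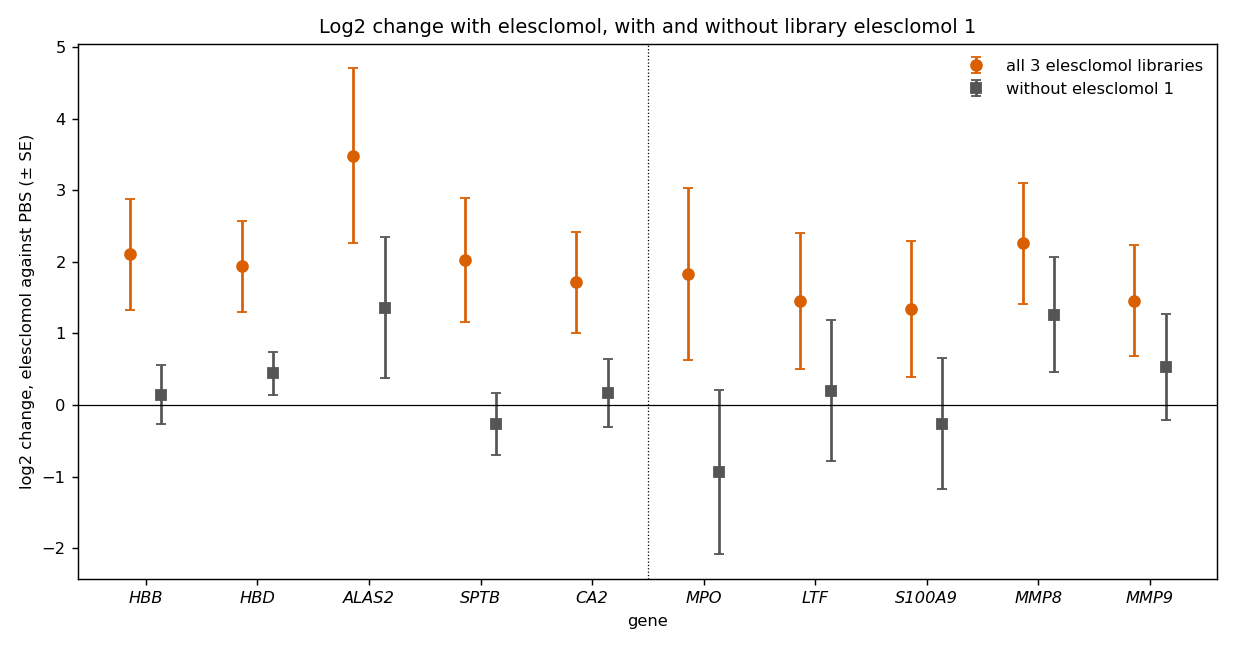
Log2 change with elesclomol against PBS for each gene, with its standard error, from all 15 libraries (circles) and from 14 without elesclomol 1 (squares). With all libraries the 10 values lie between 1.34 and 3.48; without elesclomol 1 they lie between -0.94 and 1.36, and 3 are below 0.

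Bortezomib against PBS asks what the proteasome inhibitor alone did, and the medians of the erythroid and granulocyte genes had opposite signs with all 15 libraries. The erythroid median was 0.24 and the granulocyte median -0.31, beside 0.019 for all tested genes. Of the 3 GC-rich libraries only bortezomib 1 was in this comparison, and it was low in MPO, LTF and S100A9. Without the 3 GC-rich libraries all 5 granulocyte genes lay above 0, with a median of 0.17, and the erythroid median was 0.32. Whether GC content played a part was not tested. By edgeR 0 of 10 passed, adjusted (0.0% of tested genes) or unadjusted (10.6%), and DESeq2 passed 0. ALAS2 averaged 2.08 ± 0.911 CPM with bortezomib and 0.644 ± 0.285 with PBS (SD, n = 3 each), and its log2 change was 1.603 ± 1.39 (adjusted p = 0.626). Its libraries and those of HBD lay above PBS, and those of CA2 below, 3 of 10 beside 20.2% of tested genes.

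The combination against PBS gave a median of -0.32, beside 0.0122 for all tested genes, with MMP9 above 0 at 0.51 ± 0.81 and the other 9 below. Without the 3 GC-rich libraries the median was -0.08, and ALAS2 (0.62), LTF (0.26) and S100A9 (0.26) lay above 0 as well. MMP8 had the lowest value, -1.15 ± 1.14, with 0.481 ± 0.434 CPM in combination libraries and 0.999 ± 0.0873 in PBS libraries (SD, n = 3 each). By edgeR 0 of 10 passed, adjusted (0.0% of tested genes) or unadjusted (13.6%), and DESeq2 passed 0. SPTB and MMP8 had all combination libraries below PBS, 2 of 10 beside 22.2% of tested genes. HBB averaged 18.7 ± 10.5 CPM in the combination and 26.7 ± 6.58 in PBS, with combination 3 inside the PBS range.

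The delayed combination against PBS covers bortezomib together with late elesclomol, and its lowest values were in the granulocyte genes other than MMP9. MPO averaged 1.25 ± 0.0303 CPM in delayed libraries and 4.63 ± 2.08 in PBS libraries (SD, n = 3 each), with a log2 change of -1.89 ± 1.44 (adjusted p = 0.579 by edgeR). LTF averaged 1.82 ± 0.436 CPM in delayed libraries and 5.84 ± 2.18 in PBS libraries, a log2 change of -1.70 ± 1.09 (adjusted p = 0.531 by edgeR). S100A9 averaged 1.57 ± 0.503 against 4.47 ± 2.32 CPM, and MMP8 0.335 ± 0.432 against 0.999 ± 0.0873 CPM. MMP9 was at 0.79 ± 0.77, a value set by delayed combination 2, without which it was -0.02 (-0.007 without the 3 GC-rich libraries).

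These 4 granulocyte genes and SPTB had every delayed library below every PBS library, 5 of 10 beside 27.5% of tested genes that did not overlap in either direction, 12.8% being higher. By edgeR 0 of 10 passed, adjusted (0.0% of tested genes) or unadjusted (11.1%), and DESeq2 passed 0. The granulocyte median was -1.54 and the erythroid median -0.66, beside 0.0087 for all tested genes. The delayed libraries had at least 11060930 counts and the PBS libraries at most 6287708, so depth and treatment cannot be told apart here. The comparisons against PBS share the 3 PBS libraries, and their values are set side by side without further comparison.

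Adding elesclomol to bortezomib, the combination against bortezomib, gave log2 changes from -1.66 ± 1.32 for ALAS2 to 0.48 ± 0.81 for CA2. By edgeR 0 of 10 passed, adjusted (0.0% of tested genes) or unadjusted (4.23%), and DESeq2 passed 0. HBD and SPTB had all combination libraries below the bortezomib libraries, 2 of 10 beside 8.19% of tested genes that did not overlap in either direction. Without elesclomol 1, which changes the estimated spread, 2 of 10 were under 0.05 unadjusted, beside 4.17% of tested genes. Same-numbered bortezomib and combination libraries deviated together, and HBB, HBD, ALAS2, SPTB and MMP8 were lower in the combination in 3 of 3 such pairs, as were 18.1% of tested genes. HBD was at -0.64 ± 0.13 with the pair as a block (adjusted p = 0.16 by edgeR) and HBB at -0.84 ± 0.27 (adjusted p = 0.449 by edgeR), and 0 of 10 passed.

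Adding bortezomib to elesclomol, the combination against elesclomol, placed all 10 genes below 0, from -0.95 ± 0.71 for MMP9 to -3.54 ± 1.16 for ALAS2. By edgeR 0 of 10 passed adjusted (0.0% of tested genes), 6 passed unadjusted (12.2%), and DESeq2 passed 0. Without elesclomol 1 the values ran from -2.41 to 0.28, the median was -0.51 without it and -2.35 with it, and MPO changed sign. HBD, SPTB and MMP8 had all combination libraries below the elesclomol libraries, 3 of 10 beside 16.0% of tested genes. Without elesclomol 1, 2 of 10 passed unadjusted, beside 9.29% of tested genes. Here too MMP8 was tested only because it was high in the elesclomol group, so its place in these counts and its value are a description.

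The delayed against the simultaneous combination gave a median of -0.26, with a granulocyte median of -1.22 and an erythroid median of 0.06. By edgeR 0 of 10 passed, adjusted (0.0% of tested genes) or unadjusted (2.63%), and DESeq2 passed 0. LTF was at -1.39 ± 1.09 but at 0.38 without combination 2, and 0 of 10 had libraries that did not overlap, beside 7.59% of tested genes. The interaction of both drugs, the combination's change less the sum of the single-drug changes, was below 0 for all 10 genes with a median of -2.28. By edgeR 0 passed adjusted (0.00764% of tested genes), 4 passed unadjusted (8.79%), and DESeq2 passed 0. Without elesclomol 1 the interaction ranged from -3.02 to 0.76, and 2 passed unadjusted, beside 7.11% of tested genes.

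In order of group means, HBB ran from elesclomol through bortezomib, PBS and the combination to the delayed combination, and each group's library range overlapped that of its neighbour in this order. With elesclomol 2 and 3 alone, bortezomib at 31.4 ± 2.78 CPM came first and elesclomol at 29.4 ± 3.26 next. LTF was highest in elesclomol, then PBS, bortezomib and the combination, and lowest in the delayed combination. No pair of neighbouring groups tested here differed beyond its spread by edgeR in any of the 10 genes.

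Across libraries 6 of the 10 genes formed 2 sets. Over the 14 libraries without elesclomol 1, log2 CPM of HBB, HBD and ALAS2 were correlated with each other, and so were those of MPO, LTF and S100A9. HBB and HBD had Pearson's r = 0.93 (adjusted permutation p = 0.00101) and Spearman's rho = 0.74 (adjusted permutation p = 0.0238). HBB and ALAS2 had r = 0.80 (adjusted permutation p = 0.00532) and rho = 0.84 (0.00574), and HBD and ALAS2 had r = 0.80 (0.00532) and rho = 0.80 (0.00756). In the granulocyte set LTF and S100A9 had r = 0.94 and rho = 0.93 (both adjusted permutation p = 0.00045, raw p = 1e-05, the smallest the permutations can give). MPO had r = 0.89 with LTF and r = 0.89 with S100A9, with rho = 0.88 and 0.87 (largest adjusted permutation p = 0.00225). Leaving out the 2 libraries farthest from the median of the first gene, r was 0.73 to 0.91 in the erythroid pairs and 0.81 to 0.90 in the granulocyte pairs.

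Between the erythroid and the granulocyte genes 0 of 25 pairs passed in these 14 libraries, with a median r of 0.17. HBB and MPO had r = 0.23. SPTB, CA2, MMP8 and MMP9 passed with no other gene on both measures, and CA2 had r = -0.45 with MPO and -0.52 with LTF. MPO and MMP9 had r = -0.30. A relation tested over 45 pairs passed where both permutation p-values, adjusted over the 45, were under 0.05.

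With all 15 libraries, 8 of 45 pairs passed, the same 6 with ALAS2 and MMP8 (r = 0.78, rho = 0.67) and LTF and MMP8 (r = 0.82, rho = 0.71). All 45 values of r were then above 0, against 32 of 45 without elesclomol 1. Of the 25 pairs of an erythroid with a granulocyte gene, 25 were above 0 with all libraries and 20 without elesclomol 1. Their median r was 0.59 with that library and 0.17 without it. HBB and MPO, for example, had r = 0.66 with it. In the 12 libraries that are not GC-rich, which include elesclomol 1, the same 6 pairs passed. Leaving out the 2 libraries farthest from the median of the first gene there, r was 0.60 for HBB and ALAS2. It was 0.58 for HBD and ALAS2, and 0.80 to 0.90 in the rest of the 6. A library is not independent of its group, and bortezomib 1 and combination 1, both GC-rich, were also low in MPO, LTF and S100A9.

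**Figure D5:**
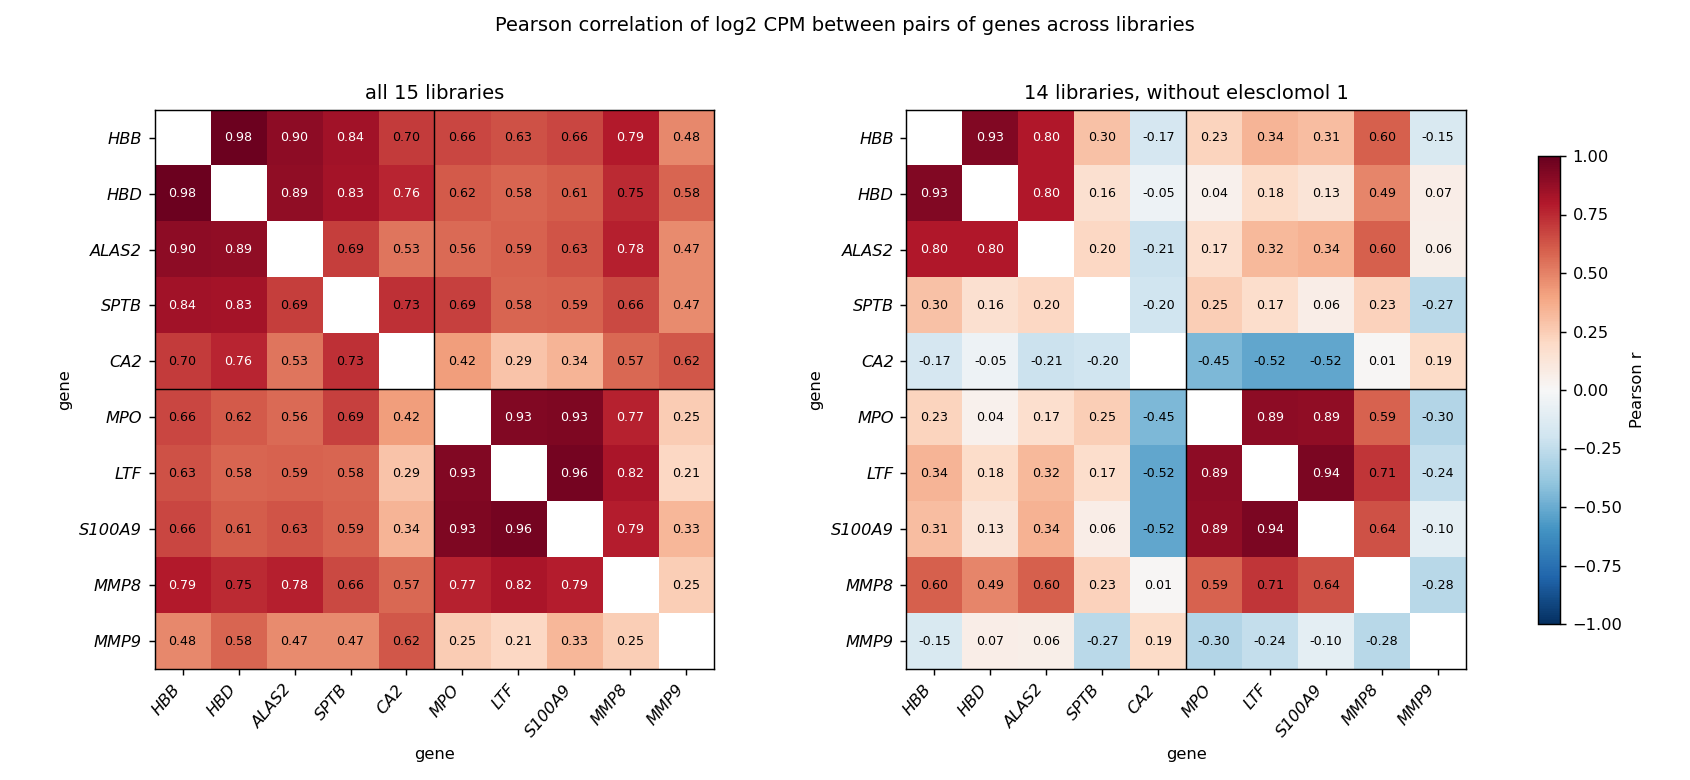
Pearson's r of log2 CPM for each pair of the 10 genes, over all 15 libraries at the left and over 14 without elesclomol 1 at the right, with black lines parting erythroid from granulocyte genes. At the right the high values are HBB, HBD and ALAS2 at 0.80 to 0.93, and MPO, LTF and S100A9 at 0.89 to 0.94, while pairs across the lines have a median of 0.17.

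The genes most like each of the 10, by Pearson's r over the 15 libraries among all tested genes, gave a similar picture as a description with no test. HBB was nearest to HBD (r = 0.98), HBE1 (0.93) and ALAS2 (0.90), and ALAS2 to HBE1 (0.91), HBB and HBD. MPO was nearest to PYGL (0.94), the liver-type glycogen phosphorylase, then S100A9 and LTF (0.93 each). LTF was nearest to S100A9 (0.96), ANXA1 (0.94), an annexin abundant in neutrophils, and TF (0.94), transferrin. S100A9 was nearest to LTF, TF (0.93) and MPO.

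The remaining 4 genes had other neighbours. SPTB was nearest to HIPK1 (0.89), RANBP10 (0.87) and ALAD (0.85), the second enzyme of haem synthesis. CA2 was nearest to OGFOD3 (0.86), UBE2R2 (0.80) and ARRB2 (0.79). MMP8 was nearest to HERC2 (0.89), WWP1 (0.88) and PIK3CB (0.87), and MMP9 to JDP2 (0.89), ATG9A (0.86) and PTGS1 (0.85). Without elesclomol 1, none of these 12 genes was among the 3 nearest of the same member, whereas HBB and HBD kept HBE1 and MPO kept PYGL. The other 6 genes lost neighbours in part. ALAS2 left the 3 nearest of HBB and of HBD, TF those of LTF, and MPO those of S100A9.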

How the data were processed

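Total RNA from femoral marrow was sequenced as ribosome-depleted stranded libraries, per the labels' protocols. The deposited values are raw counts per gene, made by the authors with STAR 2.5.4b and featureCounts 1.6.1 on GRCh37, per the submitters' processing notes. The strand setting, the annotation release and the treatment of mouse reads were not given in the sources used here. Of 57773 genes, 52338 were named, from GENCODE 29 and a second list of gene names. Unnamed genes held 1.07% of counts. Genes of mitochondrial DNA took 35.0 to 40.3% of counts. No 2 libraries were identical or within sampling noise.

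All 15 libraries entered 1 model (R 4.3.3, edgeR 4.0.16, limma 3.58.1), with TMM scaling, filterByExpr at a minimum count of 10, quasi-likelihood tests and adjustment over 13085 genes; the code was tested on simulated data. The common biological coefficient of variation was 0.171. Standard errors of log2 changes were worked back from the test, as the size of the change divided by the square root of its F statistic. The alternative tool was DESeq2 1.42.0 with its default filters for outlying libraries and low counts. These filters can leave a gene without an adjusted p-value, and such a gene was counted as not passing. How many of the 10 genes this concerned is not given here. Correlations used 100000 permutations (Python 3.11.15, scipy 1.17.1). Named genes were all 10 members, their 3 nearest genes, and the 4 most abundant of each list for erythroid and granulocyte genes. Members and lists were chosen with earlier results of these data known. Same-numbered libraries deviated together in bortezomib and combination (correlations 0.118 to 0.655), from the data and not the labels, and in no other pair of groups throughout; a fit of those 2 groups with the number as a block called 0 members. Some genes of the lists are not reported here.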

Additional observations from a re-analysis of the deposited data

How the results depend on the processing

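Over all 8 comparisons 1690 log2 changes of members were recomputed under alternatives; 66 changed sign, among them 10 of the 80 recomputed without the 3 GC-rich libraries and 7 of the 80 without elesclomol 1, and 3 passed the threshold. Without a filter on low counts, 1 member passed with elesclomol against PBS (MMP8) and 2 in the combination against elesclomol (CA2 and MMP8); the cause was not tested. Without elesclomol 1, SPTB (-0.27), MPO (-0.94) and S100A9 (-0.26) changed sign with elesclomol against PBS, and MPO (0.28) in the combination against elesclomol. Over all libraries left out in turn these values ran from -0.27 to 2.53, -0.94 to 2.38, -0.26 to 1.89 and -5.01 to 0.28. MMP9 in the delayed combination against PBS was -0.0069 without the GC-rich libraries and ran from -0.018 to 1.24 with each library left out; LTF in delayed against simultaneous ran from -1.96 to 0.38, reversed without combination 2. With each library left out in turn, 0 to 0 members passed in every comparison, and 6 to 10 pairs of members correlated. Genes called over the whole table moved more, which bears on the background shares. They numbered 0 for bortezomib, 9 for elesclomol, 0 for the combination and 0 for the delayed combination against PBS, 0 for the combination against bortezomib, 0 against elesclomol, 0 for delayed against simultaneous and 1 for the interaction. In the same order DESeq2 gave 9, 49, 51, 46, 1, 53, 0 and 32, and no filter 76, 129, 211, 193, 14, 291, 1 and 127. Only the groups compared gave 0, 136, 7, 24, 0, 0, 0 and 5. Without the 3 GC-rich libraries they numbered 9, 47, 9, 3, 4, 9, 0 and 46. With the replicate block over all libraries they numbered 0, 9, 2, 3, 0, 1, 0 and 2, with 0 members in each, and bortezomib and combination alone with the block, a fit added after seeing the data, called 5. With 1 library left out the ranges were 0 to 3, 1 to 22, 0 to 6, 0 to 51, 0 to 0, 0 to 30, 0 to 0 and 0 to 27. With 1 to 3 counts in some libraries, ALAS2 and MMP8 are limited by depth.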
